A study of Mus musculus with 185 samples.

Results

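The negative limb of the mammalian circadian clock and its first output factors were followed here in the brains of fasted, high-fat-fed and chow-fed mice. The set holds 10 genes of 57010 in the count matrix: the Period genes Per1, Per2 and Per3, the cryptochromes Cry1 and Cry2, the PAR-bZIP factors Dbp, Tef and Hlf, and the Rev-erb receptors Nr1d1 and Nr1d2. They were chosen by name, with earlier results of these data known, and each symbol matched a single Ensembl gene. Male C57BL/6J mice aged 8 weeks were used throughout, with no transgene or drug. In the 16 h study, 18 pair-housed mice in 9 cages were kept on chow, fasted, or switched from chow to high-fat diet (HFD), with 6 mice per diet. In the 24 h study, 19 single-housed mice stayed on chow (9 mice) or were fasted (10 mice). RNA-seq was run on hypothalamus, hippocampus, superior and inferior colliculus, with frontal cortex as the last region at 16 h and zona incerta at 24 h. The 5 count columns that carry the heading of a given mouse were summed, so that each mouse gave 1 value per gene and served as the replicate. No column was tied to a region. Of 185 columns 27 were sparse (under 1000000 counts, or under 16000 genes expected in a draw of 500000 counts), 11 of them from 24 h chow and 12 from 24 h fasted mice, in a study where 27 of 95 libraries are labelled with an RNA reading of 0. Of the 24 h libraries 25 are marked in the labels as failing the alignment check (12 chow and 13 fasted), and the study excluded libraries that failed it. Of these, 24 formed a block without detectable RNA that was sequenced apart on an SP flowcell and discarded by the study. Other libraries were flagged there as outliers of their region. Since no column is tied to a library, all columns were kept in the sums here, so the sums include the libraries that the study left out. In the 24 h study, superior colliculus libraries were marked as failing the alignment check more often in fasted than in chow mice. Deep columns weigh more in a sum, so the region mix may differ between the diets, which was not tested. The sums ran from 57962237 to 161577364 counts per mouse, and a clock gene had from 1207 counts (Cry1) to 43751 counts (Tef) in a single mouse, so counting error was small beside the spread between mice. Levels are given as CPM (counts per 1000000 counts of that mouse), and a difference was called when its Benjamini-Hochberg adjusted p, over all genes tested by edgeR's quasi-likelihood test, was under 0.05. In such summed tissue, fewer cells of a type and less RNA per cell cannot be told apart.

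In the clock, CLOCK and BMAL1 bind E-box sequences and switch on the Per and Cry genes, whose proteins then enter the nucleus and inhibit CLOCK and BMAL1. The Rev-erb receptors, themselves E-box targets, repress Bmal1 through ROR elements. DBP, TEF and HLF bind D-box sequences and pass the rhythm on to many output genes. Period genes also answer to signals from outside the loop, and Per1 carries glucocorticoid and cAMP response elements in its regulatory region. Mice are active and eat mainly in the dark, and both feeding and corticosterone shift clock gene expression in peripheral tissues and in many brain areas outside the suprachiasmatic nucleus.

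The E-box, D-box and ROR letters were looked for in the 250 bases before the canonical transcription start of each gene (GRCm39, GENCODE vM39, both strands). They are shown as the motifs of the loop just described that were found in these windows. The E-box was searched as CACGTG and the related E-prime box as CACGTT, which reads AACGTG on the other strand. An E-box stood in 30% of the 10 windows and in 6.26% of those of 21770 protein-coding genes, and an E-prime box in 30% against 4.16%. The D-box was searched as TTATGTAA or TTACGTAA and was found in 20% against 0.937%, and the ROR element in 10% against 0.156%. A full cAMP response element, TGACGTCA, was in none of the 10 and in 1.69% of all. None of these motifs was found in the windows of Hlf and Nr1d2, and no E-box or E-prime box in those of Per2, Per3 and Dbp. The sites follow in the direction of transcription with the motif in capitals:
Per1, E-box 22 to 17 bases upstream, chr11:68989234-68989263, + strand: accccttaacgaCACGTGggccctcaattg
Cry1, E-box 29 to 24 bases upstream, chr10:85020961-85020990, - strand: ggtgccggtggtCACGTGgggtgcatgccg
Tef, E-box, chr15:81695465-81695494, + strand: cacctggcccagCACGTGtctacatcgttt
Cry1, E-prime box 48 to 43 bases upstream, chr10:85020980-85021009, - strand: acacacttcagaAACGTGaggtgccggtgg
Cry2, E-prime box, chr2:92264563-92264592, - strand: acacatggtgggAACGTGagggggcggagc
Nr1d1, E-prime box 72 to 67 bases upstream, chr11:98666214-98666243, - strand: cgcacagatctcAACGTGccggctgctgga
Per2, D-box, chr1:91387153-91387182, - strand: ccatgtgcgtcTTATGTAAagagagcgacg
Per3, D-box, chr4:151129309-151129338, - strand: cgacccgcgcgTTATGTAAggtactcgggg
Per3, D-box, chr4:151129262-151129291, - strand: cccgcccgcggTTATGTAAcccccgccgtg
Dbp, ROR element, chr7:45354310-45354338, + strand: cattggccaAATATAGGTCAgtgtcccgc

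All 10 genes were expressed in every mouse. Per kilobase of exon, the 16 h chow mice had the most Tef, at 36.0 ± 1.36 CPM per kb (SD, n = 6), and the least Cry1, at 3.90 ± 0.37. Between them came Hlf (23.5), Nr1d1 (20.2), Nr1d2 (16.5), Cry2 (15.0), Dbp (10.9), Per1 (10.6), Per3 (10.0) and Per2 (5.88). The ranges of neighbours in this order overlapped from Hlf down to Per3, and those of Tef and Hlf, Per3 and Per2, and Per2 and Cry1 did not. In the 24 h chow mice Hlf (30.4 ± 8.12 CPM per kb, n = 9) and Tef (26.9 ± 1.80) overlapped, and Per2 (4.93 ± 0.39) and Cry1 (4.02 ± 0.21) were again the lowest. The studies differed in housing, in sequencing and in the regions taken, so levels are not compared between them.

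**Figure D1:**
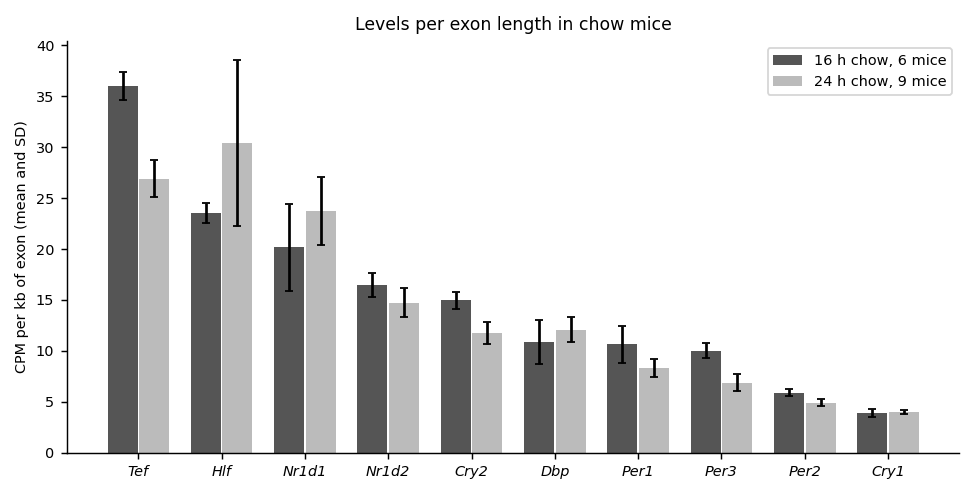
Mean CPM per kilobase of exon of each gene in the chow mice of the 16 h study (6 mice) and the 24 h study (9 mice). Error bars are the SD between mice. Tef and Hlf stand highest and Per2 and Cry1 lowest in both.

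After a 24 h fast, 3 of the 10 genes were called, all upward: Per1, Cry1 and Cry2. Over all 29011 genes tested, 11.4% were called (1676 up and 1631 down). Of the clock genes, 5 had positive and 5 negative differences, with a median of 0.07 on the log2 scale beside -0.004 for all genes tested, and a median size of 0.26 beside 0.13. The plot of CPM by mouse shows that Per1 and Cry1 were the 2 genes for which every fasted mouse stood above every chow mouse, a separation that 0.714% of all genes tested showed. No clock gene had every fasted mouse below every chow mouse, against 0.586% of all genes. Because the genes were chosen with earlier results known, these shares are a description only.

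**Figure D2:**
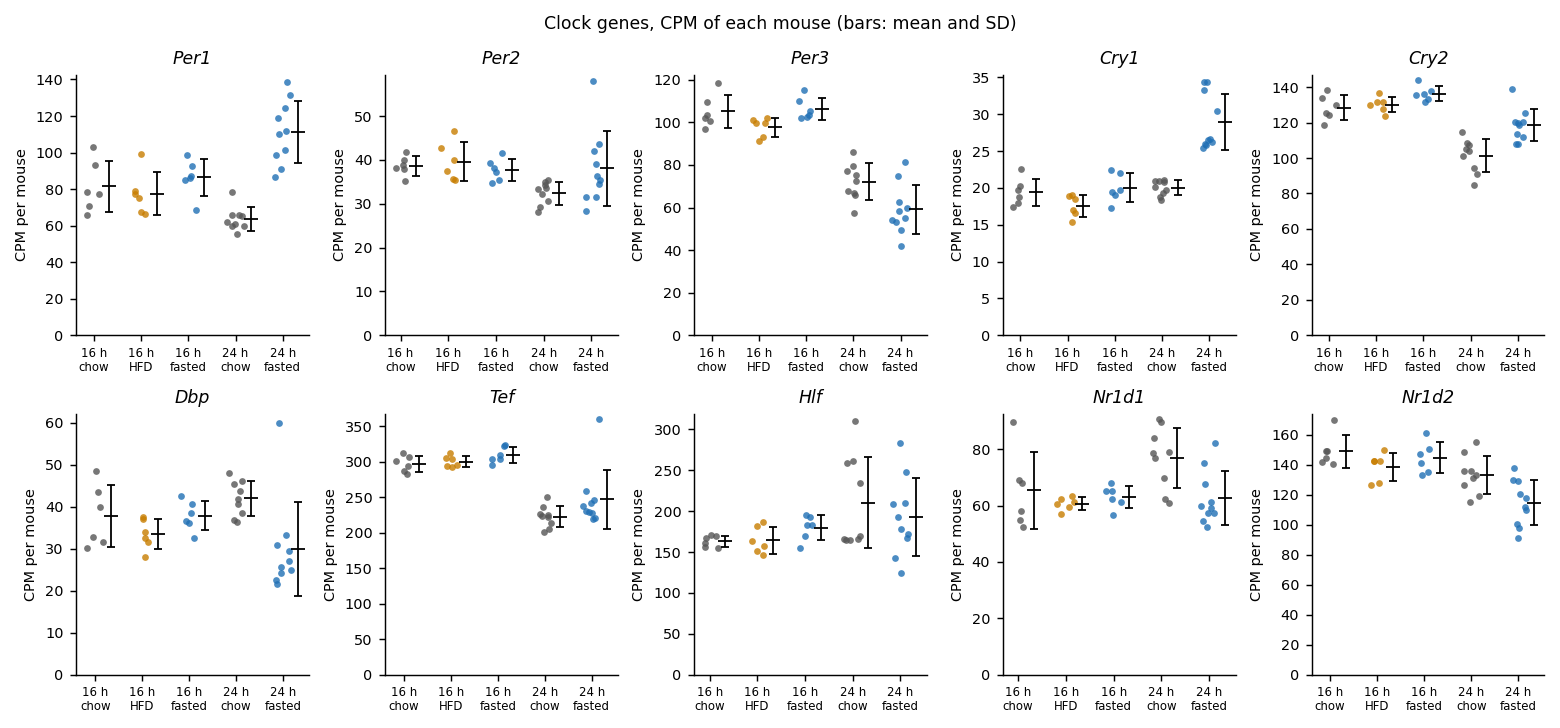
CPM of each gene in each mouse (points), with the mean and SD of the group beside them, for 16 h chow, HFD and fasted (6 mice each), 24 h chow (9) and 24 h fasted (10). Per1 and Cry1 of the 24 h fasted mice lie above all 24 h chow mice, and 1 fasted mouse lies far above the rest for Dbp and Tef.

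Per1 (ENSMUSG00000020893, chr11:68986035-69002300), a repressor of CLOCK and BMAL1 that is also induced quickly by stimuli, had the largest difference. Its level ran from 55.2 to 78.4 CPM in the 24 h chow mice, with a median of 62.1. In the fasted mice it ran from 86.4 to 138.6 CPM, with a median of 110.9. The groups did not overlap. The means were 63.7 ± 6.54 CPM (SD, n = 9) and 111.3 ± 17.2 CPM (n = 10), and the fitted log2 difference was 0.86 ± 0.09 (SE), a 1.81-fold rise (95% interval 1.59 to 2.06) with an edgeR adjusted p of 2.09e-06.

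Per2 and Per3 were not called. Per2 (ENSMUSG00000055866, chr1:91343700-91387069), the family member most needed for rhythm, ran from 28.1 to 35.4 CPM in chow mice (median 33.3) and from 28.3 to 58.0 CPM in fasted mice (median 35.9). Its ranges overlapped, with 6 of 10 fasted mice above all chow mice, and its log2 difference was 0.28 ± 0.10 (edgeR adjusted p = 0.0768). Per3 (ENSMUSG00000028957, chr4:151081373-151129140), a Period gene outside the core loop, ran from 57.3 to 86.3 CPM in chow mice (median 72.5) and from 42.0 to 81.5 CPM in fasted mice (median 56.7). Here 5 of 10 fasted mice lay below all chow mice, and the log2 difference was -0.23 ± 0.08 (edgeR adjusted p = 0.0684). With clock time of euthanasia as a covariate, Per3 was called (-0.26 ± 0.07, edgeR adjusted p = 0.0236).

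Both cryptochromes, the partners of the Period proteins and the strongest repressors of the loop, rose. Cry1 (ENSMUSG00000020038, chr10:84967560-85021252) ran from 18.3 to 21.1 CPM in chow mice with a median of 20.2. In fasted mice it ran from 25.4 to 34.4 CPM with a median of 26.6. The groups did not overlap, and 6 of the fasted mice lay between 25.4 and 26.7 CPM and the other 4 between 30.5 and 34.4 CPM. The means were 20.0 ± 1.03 CPM (n = 9) and 28.9 ± 3.799 CPM (n = 10), with a fitted log2 difference of 0.59 ± 0.08 (1.504-fold, 95% interval 1.33 to 1.70, edgeR adjusted p = 6.81e-05).

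Cry2 (ENSMUSG00000068742, chr2:92233894-92264474) ran from 85.03 to 114.7 CPM in chow mice (median 103.8) and from 107.8 to 138.8 CPM in fasted mice (median 119.1). All 10 fasted mice were above the chow median and 6 above every chow mouse. The log2 difference was 0.28 ± 0.06, a 1.22-fold rise (95% interval 1.12 to 1.32, edgeR adjusted p = 0.00315). Averaging the 5 columns of a mouse with equal weight (limma) kept Cry2 (adjusted p = 0.045) but not Cry1 (0.50 ± 0.22, limma adjusted p = 0.355). With the 27 sparse columns left out, the same average gave 0.46 ± 0.08 for Cry1 (limma adjusted p = 0.000248).

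None of the PAR-bZIP genes was called with all mice in the fit. Dbp (ENSMUSG00000059824, chr7:45354512-45359627), an output factor with one of the widest daily swings of any transcript, ran from 36.5 to 48.01 CPM in chow mice, with a median of 41.9. In fasted mice it ran from 21.6 to 60.04 CPM, with a median of 26.3. In 9 of the 10 fasted mice Dbp was below every chow mouse, and in the remaining one, mouse 1445, it was above every chow mouse. The log2 difference over all mice was -0.44 ± 0.14 (95% interval -0.74 to -0.14) and missed the threshold (edgeR adjusted p = 0.0558). Without mouse 1445 it was -0.60 ± 0.08 and was called (edgeR adjusted p = 5.03e-05). With the sparse columns left out and all mice kept it was -0.48 ± 0.15 (edgeR adjusted p = 0.0478), and DESeq2 called it with all columns (-0.42 ± 0.15, adjusted p = 0.0489). Dbp was called in 6 of 29 alternatives to the fit over all mice and columns, and not in the others.

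Mouse 1445 had the smallest sum of all mice. In the labels 1 of its libraries, that of the hypothalamus, is marked as failing the alignment check, and 2, with the inferior colliculus, have an RNA reading of 0, although none of its 5 columns was among the sparse ones. Dbp stood at 72.01 and 72.96 CPM in its 2 deepest columns and at 26.1 to 33.3 CPM in the other 3. This mouse was also the highest of the fasted mice for Per2, Per3, Cry2, Tef and Nr1d1, and for Per1 it ranked below 1 other. Without it, Per3 (-0.29 ± 0.07, edgeR adjusted p = 0.00518) and Nr1d1 (-0.29 ± 0.08, edgeR adjusted p = 0.0243) were called as well, and Per1, Cry1 and Cry2 stayed called, so that 6 of 10 genes passed. With each mouse left out in turn, 2685 to 3725 of all genes were called, beside 3307 with all mice. Mouse 1445 was singled out from these same values, and its part in these results was not otherwise tested.

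**Figure D3:**
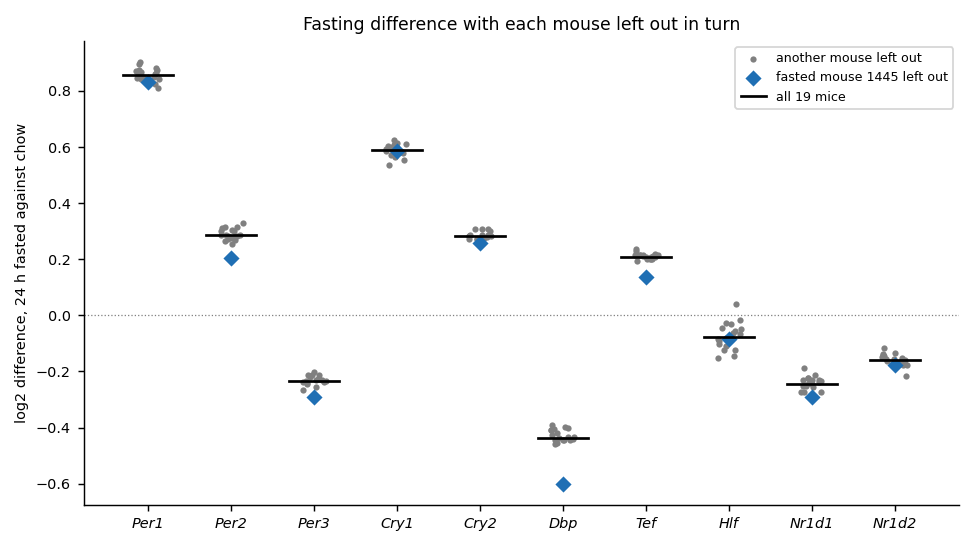
Log2 difference between 24 h fasted and 24 h chow mice (positive: higher in fasted) for each gene, from all 19 mice (black line), without fasted mouse 1445 (blue diamond) and without each other mouse in turn (grey points). For Dbp the value goes from -0.44 to -0.60 when mouse 1445 is left out, and for Tef from 0.21 to 0.14.

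Tef (ENSMUSG00000022389, chr15:81686622-81711064), a D-box activator like Dbp, ran from 201 to 249.7 CPM in chow mice (median 223) and from 219 to 359.5 CPM in fasted mice (median 234). The highest value was again mouse 1445, and the log2 difference of 0.21 ± 0.07 was not called (edgeR adjusted p = 0.0788). Hlf (ENSMUSG00000003949, chr11:90227221-90281761) ran from 164.2 to 309.9 CPM in chow mice and from 123.9 to 284 CPM in fasted mice. The chow mice fell into 5 between 164.2 and 169.6 CPM and 4 from 234 CPM upward. Its log2 difference was -0.08 ± 0.17 (95% interval -0.43 to 0.27, edgeR adjusted p = 0.841). Hlf was the gene whose level varied most between the columns of a mouse, by a median of 2.699-fold in the 24 h chow and 3.49-fold in the 24 h fasted mice (ratio of the highest to the lowest column that was not sparse).

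The Rev-erb genes were lower on average but not called. Nr1d1 (ENSMUSG00000020889, chr11:98658752-98666188), the heme-binding repressor of Bmal1, ran from 61.1 to 90.6 CPM in chow mice (median 78.7) and from 52.3 to 82.2 CPM in fasted mice (median 59.5). In 6 of 10 fasted mice it was below every chow mouse, with a log2 difference of -0.24 ± 0.09 (edgeR adjusted p = 0.0843). Nr1d2 (ENSMUSG00000021775, chr14:4230545-4266624), its close relative, ran from 115.4 to 155.3 CPM in chow mice (median 133.1) and from 91.4 to 137.8 CPM in fasted mice (median 114.9), with a log2 difference of -0.16 ± 0.08 (edgeR adjusted p = 0.233). Genes on the opposite strand overlap 6 of the 10. Nr1d1 overlaps Thra over 3173 bases, and Thra had 530.6% of the counts of Nr1d1. Dbp overlaps Sphk2 over 737 bases (79.99% of its counts) and Hlf overlaps Mmd over 16035 bases (42.3%). Cry2 overlaps D930015M05Rik over 23418 bases (2.99% of its counts), Per3 overlaps Uts2 over 4729 bases (1.23%) and Tef overlaps Gm17597 over 8847 bases (0.337%). The strand setting of the counts is not given in the sources used here, so reads of such pairs may not be fully separated.

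The sample notes record that the superior colliculus tubes of chow mouse 1423 and fasted mouse 1454 were exchanged, and the methods of the study state that the sample records were corrected for it. Whether the count columns follow that correction was not tested. In mouse 1423 3 of the 4 columns that were not sparse had 53.2 to 62.9 CPM of Per1 and the remaining one stood at more than 2 times those. In mouse 1454 the 4 columns that were not sparse had 73.3 to 116.1 CPM. Without these 2 mice the Per1 difference was 0.92 ± 0.09, that of Cry1 0.62 ± 0.09 and that of Cry2 0.28 ± 0.07, all called (largest edgeR adjusted p = 0.0103).

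In the 16 h study no clock gene was called for either diet against chow, and neither was any of the 29746 genes tested (0%). The smallest adjusted p of any gene was 0.125 for fasted against chow and 0.503 for HFD against chow, and 2267 and 2914 genes had an unadjusted p under 0.05. DESeq2 called 19 and 5 genes of the whole table, none of them among these 10. Per1 ran from 65.6 to 103.1 CPM in chow mice (median 77.9), from 66.5 to 99.0 CPM in HFD mice (median 76.4) and from 68.4 to 98.7 CPM in fasted mice (median 86.7). The fasted difference was 0.11 ± 0.11 (95% interval -0.13 to 0.35) and the HFD difference -0.04 ± 0.11 (-0.28 to 0.20). Cry1 ran from 17.4 to 22.5 CPM in chow, 15.4 to 18.99 CPM in HFD and 17.3 to 22.5 CPM in fasted mice.

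Over the 10 genes the 16 h fasted differences lay between -0.03 and 0.16 on the log2 scale, with Hlf the largest (0.16 ± 0.06, edgeR adjusted p = 0.603). HFD differences lay between -0.14 for Dbp (-0.14 ± 0.10, edgeR adjusted p = 0.654) and 0.07 for Per2. Dbp ran from 30.2 to 48.4 CPM in chow mice, 27.9 to 37.5 CPM in HFD mice and 32.6 to 42.5 CPM in fasted mice. HFD mice were killed 38.2 min later on average than chow mice and fasted mice 20.0 min later. With clock time in the model the HFD difference of Dbp was -0.25 ± 0.07 (edgeR adjusted p = 0.438), still not called.

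**Figure D4:**
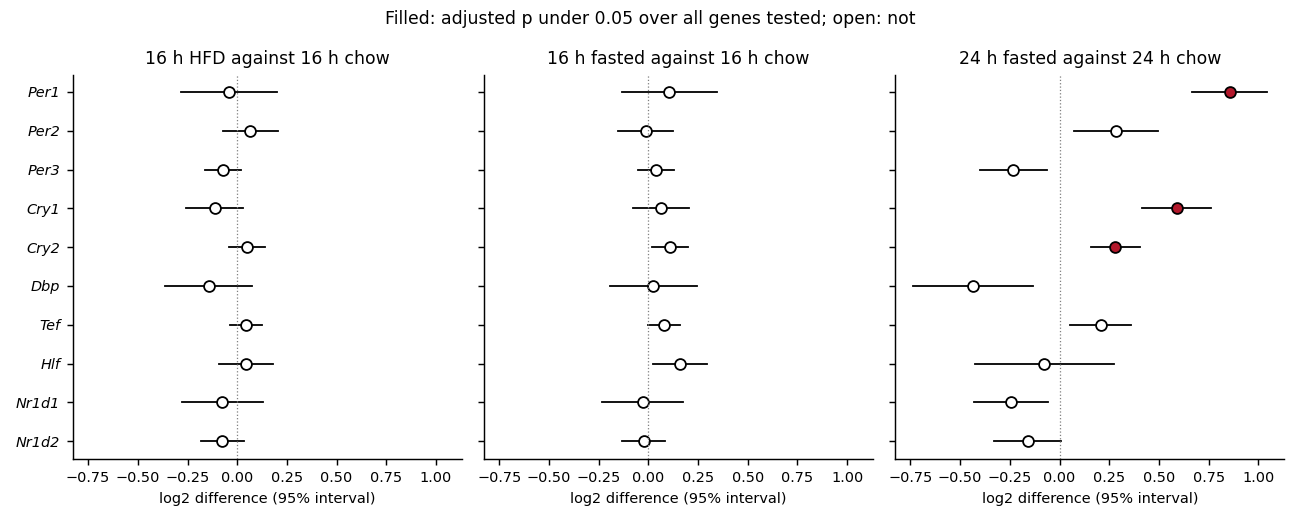
Log2 differences (points) with 95% intervals for the 10 genes: 16 h HFD against chow, 16 h fasted against chow and 24 h fasted against chow. Filled points passed adjusted p under 0.05, which only Per1, Cry1 and Cry2 did, after 24 h.

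Set against each other, 16 h fasted and 16 h HFD mice differed at 65 of 29746 genes (0.219%), and at none of the clock genes. Per3 was the member with every fasted mouse above every HFD mouse (101.98 to 115.3 CPM against 91.1 to 101.82 CPM), which 0.662% of all genes showed, and 0.43% showed the opposite order. Its log2 difference was 0.11 ± 0.04 (edgeR adjusted p = 0.314). Cry1 had the largest difference, 0.18 ± 0.07 (edgeR adjusted p = 0.305).

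The fasting differences of the studies were compared directly in a single model with the study by fasting contrast. Per1 (0.75 ± 0.15, edgeR adjusted p = 0.00284) and Cry1 (0.53 ± 0.12, edgeR adjusted p = 0.00973) had a larger fasting difference at 24 h than at 16 h, in a contrast that called 1.7% of 30849 genes. With equal weight of all columns in limma the Cry1 value was 0.63 ± 0.34 and not called (adjusted p = 0.398), and with the sparse columns left out of that average it was 0.40 ± 0.10 (limma adjusted p = 0.0336). The contrast was not called for Cry2 (0.18 ± 0.08, edgeR adjusted p = 0.361) or Dbp (-0.46 ± 0.20, edgeR adjusted p = 0.341), nor for the other 6 genes. Duration, housing, regions, sequencing runs and the hour at which food was removed all differ between the studies and cannot be told apart.

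Clock genes change with the hour of the day, so the labelled time of euthanasia was related to their levels. The 16 h mice were killed between 8:26 and 11:10 and the 24 h mice between 9:10 and 11:20, as the labels give the times. These times carry a mark of universal time and were read as local time, which the sources used here do not state. With lights on at 6:00 this would be the early part of the resting phase, when Dbp, Per1 and Nr1d1 transcripts climb in many mouse tissues. In the 16 h study, with diet in the model, no gene of 30374 was called for its slope per hour (0%), and 1542 (5.08%) had an unadjusted p under 0.05. Among the clock genes 4 of 10 did, all positive: Dbp, Per1, Nr1d1 and Per2.

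Dbp had the smallest p of all genes tested, with a slope of 0.18 ± 0.04 log2 units per hour (95% interval 0.11 to 0.26, unadjusted p = 5.72e-05 from the edgeR fit, adjusted p = 0.732). The slopes of Per1 (0.18 ± 0.04, unadjusted p = 0.001 by edgeR), Nr1d1 (0.15 ± 0.04, unadjusted p = 0.0014 by edgeR) and Per2 (0.08 ± 0.03, unadjusted p = 0.0148 by edgeR) followed. Under DESeq2, Dbp was the single gene of the whole table called (0.19 ± 0.04, adjusted p = 0.0399). That fit took cage mates as independent. It was the 1 of 28 alternatives that called the Dbp slope, and the fit on sums per cage did not call it. Hlf was the one clock gene with a negative slope (-0.06 ± 0.03, unadjusted p = 0.0644 by edgeR).

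These mice were killed in 3 rounds of 3 cages, with a cage of each diet per round and cage mates 6 to 13 min apart, so most of the spread in clock time lay between rounds. Outside the hypothalamus all 24 libraries of the first round came from the left hemisphere, all 24 of the last from the right, and those of the second were 12 and 12. Between rounds, clock time, round and hemisphere cannot be told apart. With round as a further covariate, an alternative chosen after seeing the data, no gene was called. Most of the clock time left in that fit lay between cage mates. Its slopes thus largely compared the first with the second mouse killed in a cage, scaled to an hour. They were 0.40 ± 0.31 log2 units per hour for Dbp (unadjusted p = 0.211 by edgeR), 1.42 ± 0.26 for Per1 (unadjusted p = 6.12e-05 by edgeR, adjusted p = 0.145), 0.70 ± 0.32 for Nr1d1 (unadjusted p = 0.0428 by edgeR) and 0.14 ± 0.28 for Per2 (unadjusted p = 0.609 by edgeR). In every cage Per1 was higher in the mouse killed second, and within a cage killing order and clock time cannot be told apart. Mean Dbp over the 6 mice of a round was 31.7 CPM in the first, 37.2 CPM in the second and 40.1 CPM in the last. In chow mice it went from 30.9 over 36.3 to 46.0 CPM, in fasted mice from 34.3 over 39.6 to 39.6 CPM, and in HFD mice from 29.8 over 35.7 to 34.8 CPM. The 16 h period of later rounds had also started later on the day before, in the chow mice too, which stayed on chow. Per1 round means were 72.7, 83.4 and 89.2 CPM, and those of Nr1d1 57.9, 61.6 and 69.6 CPM.

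**Figure D5:**
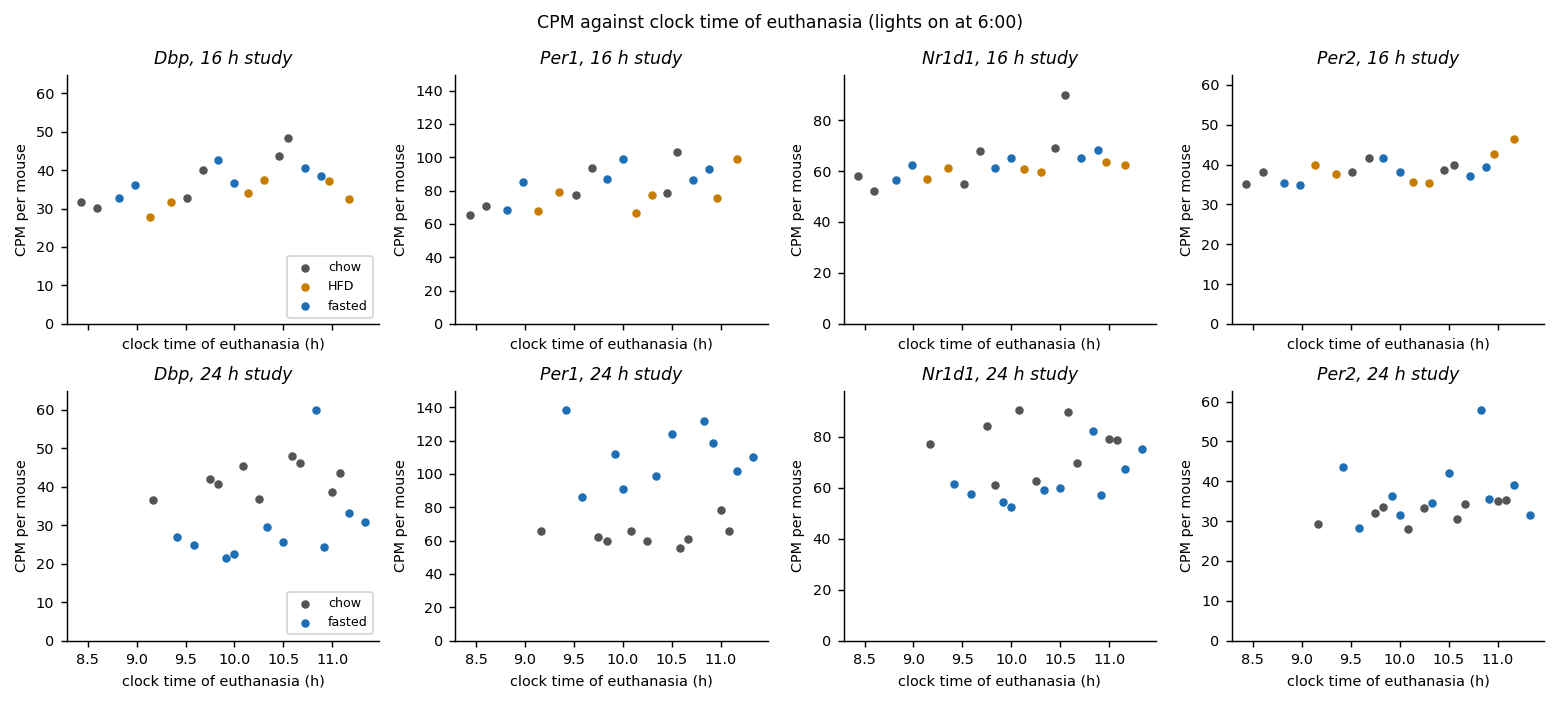
CPM of Dbp, Per1, Nr1d1 and Per2 in each mouse against the labelled clock time of euthanasia in hours, for the 16 h study (top) and the 24 h study (bottom), coloured by diet. Fasted and chow mice of the 24 h study separate at all hours for Per1, and for Dbp in all but 1 fasted mouse.

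Within diet groups, 5 of 50 relations of log2 CPM with clock time had an unadjusted permutation p under 0.05 (exact, except 100000 resamples in the group of 10), all in the 16 h study. They were 3 of 10 in chow, 2 of 10 in HFD and 0 of 10 in fasted mice, where 5.77%, 5.04% and 4.44% of all genes tested had such a p. In 16 h chow mice Dbp had Pearson r = 0.92 (two-sided exact permutation p = 0.00694) and Spearman rho = 0.94 (exact permutation p = 0.0167, n = 6), and r = 0.88 without the 2 mice farthest from the median time. Per3 (r = 0.90) and Tef (r = 0.91) were also positive in these chow mice, with exact permutation p = 0.00694 and 0.0111. In HFD mice Hlf was lower at later hours (r = -0.98, exact permutation p = 0.00278) and Nr1d1 had r = 0.87 (exact permutation p = 0.0292). In each case the 6 mice stand at 3 round times, with 2 cage mates at each. The permutations exchanged single mice as if cage mates were independent, so their p-values are not exact for cages. Without mouse 6, the last chow mouse killed, r was 0.89 for Dbp (exact permutation p = 0.05, n = 5), 0.98 for Per3 (exact permutation p = 0.00833) and 0.87 for Tef (exact permutation p = 0.0667).

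In the 24 h study, where chow mice were killed between 9:10 and 11:05 and fasted mice between 9:25 and 11:20, no gene of 30612 was called for its slope (0%, and 0 by DESeq2), and 5.18% had an unadjusted p under 0.05. Of the clock genes this was Per3 alone (0.15 ± 0.06 log2 units per hour, unadjusted p = 0.0203 by edgeR). The Dbp slope was 0.18 ± 0.12 (95% interval -0.07 to 0.42). Without mouse 1445 it was 0.08 ± 0.06 (unadjusted p = 0.217 by edgeR). That of Per1 was -0.01 ± 0.07 (-0.17 to 0.14). Slopes were not called as different between fasted and chow mice for any of 31042 genes (0% by edgeR, 2385 with an unadjusted p under 0.05), and DESeq2 called 2, neither of them among these 10. With clock time in the model the fasting differences at 24 h were 0.86 ± 0.09 for Per1, 0.60 ± 0.08 for Cry1, 0.29 ± 0.06 for Cry2 and -0.47 ± 0.14 for Dbp, and all 4 were called (largest edgeR adjusted p = 0.0359). Fasted mice were killed 7.89 min later than chow mice on average.

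Other components of the clock gave a mixed picture. Of 18 further clock genes, 3 were called higher and none lower after the 24 h fast, with a median log2 difference of 0.04. An unadjusted p under 0.05 by edgeR was found for 6 of them. Bhlhe40, which was not called, went from 68.1 ± 10.5 CPM in chow to 54.2 ± 5.64 CPM in fasted mice. Over all genes tested 11.4% were called in that comparison, 1676 up and 1631 down. Bmal1, the partner of CLOCK, rose by 0.27 ± 0.07 (edgeR adjusted p = 0.0115). Ciart, a repressor of CLOCK and BMAL1, rose by 0.39 ± 0.10 (edgeR adjusted p = 0.0101). Usp2, a clock-controlled deubiquitinase, rose by 0.44 ± 0.11 (edgeR adjusted p = 0.0123). Clock itself had a difference of -0.03 ± 0.04. None of the 18 was called in the 16 h diet comparisons or for a slope. Bmal1 alone was called for the contrast of the fasting differences (0.37 ± 0.10, edgeR adjusted p = 0.0392), which called 1.7% of all genes tested.

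Per1 is also a known glucocorticoid target and immediate early gene, so genes of both kinds are set beside it. The lists were chosen with earlier results of these data known, so their counts are a description only. Over all genes tested 11.4% were called after 24 h (1676 up and 1631 down). All 14 glucocorticoid-responsive genes listed rose after 24 h, with a median log2 difference of 1.59, and none was called at 16 h (median 0.25). The 3 most abundant were Klf9 (0.72 ± 0.11), Mt1 (1.18 ± 0.15) and Sgk1 (2.36 ± 0.15). Sgk1 went from 44.5 ± 11.0 CPM in chow to 220.4 ± 41.7 CPM in fasted mice. Of 12 immediate early genes, 3 were called higher (Fos, Junb and Dusp1) and none lower. The 3 most abundant, Egr1, Arc and Fosl2, were not called (0.28 ± 0.23, 0.12 ± 0.23 and 0.26 ± 0.15). Whether the Per1 difference moves with either list was not tested.

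Some cell type markers also moved after 24 h, where 11.4% of all genes tested were called. Of 5 markers each, 3 microglial (Cx3cr1, P2ry12 and Tmem119), 2 astrocytic (Aqp4 and Gja1) and 2 endothelial genes (Cldn5 and Flt1) were called lower. None was called higher. The median log2 difference of the 5 markers was -0.42 for microglia, but 0.05 for astrocytes and 0.01 for endothelium. The markers of these last lists thus did not all go down. None of the 5 neuronal, oligodendrocyte, choroid plexus, pituitary and blood markers or of the 7 tested suprachiasmatic markers was called. Summed microglial markers ran from 115.1 CPM upward in chow mice (median 145.6) and from 92.9 to 149.7 CPM in fasted mice (median 108.9), summed astrocytic markers from 897.5 to 1154 and 782.5 to 1032 CPM, summed endothelial markers from 174.8 to 289.4 and 146.4 to 236.1 CPM, and summed neuronal markers from 2448 to 3460 and 2681 to 3544 CPM. No marker of these lists was at 0 in all mice of a group. The part of these shifts in the clock gene differences was not tested.

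After group means were removed, members of a family did not vary together evenly from mouse to mouse. Per1 and Per2 had r = 0.66 over the 18 mice of the 16 h study and 0.69 over the 19 mice of the 24 h study. Nr1d1 and Nr1d2 had 0.51 and 0.61, Dbp and Tef 0.29 and 0.87, Cry1 and Cry2 -0.18 and 0.40, and Dbp and Hlf -0.31 and 0.35. The Dbp and Tef value at 24 h includes mouse 1445, and its Spearman rho was 0.58. All values of a mouse share its library depths and region mix.

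Leaving out genes whose mean log2 CPM was below 0, the genes outside the set that followed Per1 most closely from mouse to mouse over all 37 mice were Tob2 (r = 0.77), Csrnp1 (0.74) and Nfkbia (0.74). For Cry1 they were Ift27, Raly and Irf2bp2 (0.80 each), and for Cry2 Dusp8 (0.89), Sympk (0.85) and Bcas3 (0.84). For Dbp they were Tlnrd1 (0.81), Rps6ka5 (0.80) and Gnb5 (0.80), with r of 0.26 to 0.59 in the 16 h study against 0.86 to 0.92 in the 24 h study. Nr1d1 was closest to Ppargc1b (0.76), Setd1b (0.75) and Dab2ip (0.75). The highest value of any member was that of Hlf with Cldn12, 0.90 over all mice but 0.12 in the 16 h study alone.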

How the data were processed

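RNA was extracted from dissected brain regions, ribosomal RNA was depleted, and libraries were made with a directional kit. Per the labels the authors used bcl2fastq 2.20.0, aligned with STAR 2.7.3a to GRCm39 and deposited raw counts per Ensembl gene. The strand column and annotation release are not given in the sources used here. Headings of the count matrix name 37 mice, 5 columns each, and the region of a column was not assigned (185 columns in all, 2994 to 65973281 counts each). The depth per mouse sets a counting error well below the spread between mice.

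Counts were summed per mouse. edgeR 4.0.16 (filterByExpr, TMM, quasi-likelihood test, R 4.3.3) was fitted over all genes for each study, with diet as the factor, and for both studies for the contrast of fasting differences. Clock time slopes had diet as a covariate. Alternatives used DESeq2 1.42.0, limma 3.58.1, other filters, columns, covariates, cage sums and each mouse left out. Fits were tested on simulated data. Symbols and positions are from GENCODE vM39, and exon lengths are the union of a gene's exons. The log2 CPM for mouse-to-mouse correlations used a prior count of 2. Nothing in the labels makes cage mates independent, and p-values at 16 h over mice take them as such.

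The genes and lists were chosen with earlier results of these data known. All 10 members are named throughout, other clock genes where called, and the 3 most abundant of the glucocorticoid and immediate early lists. The 3 genes most alike were sought for each member. They are given for Per1, Cry1, Cry2, Dbp and Nr1d1, and only the closest for Hlf. The list genes named beyond these were chosen after their values were seen. Regional values were not analysed here.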

Additional observations from a re-analysis of the deposited data

Results flagged for a closer look

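Of 50 combinations of a clock gene and a group, 5 held a mouse far from the rest of its group, and chance alone flags about 1 in 20. In the 24 h fasted group mouse 1445 was the highest for Dbp (60.04 CPM, next mouse 33.2 CPM), Tef (359.5 CPM, next 258 CPM) and Per2 (58.0 CPM, next 43.7 CPM). In the 24 h chow group Per1 was highest in mouse 1423 (78.4 CPM, next 65.7 CPM), a mouse whose superior colliculus tube is noted as exchanged, with sample records that the study states were corrected for it. In the 16 h chow group Nr1d2 was highest in mouse 6 (170.1 CPM, next 149.4 CPM), which was the highest of its group for 9 of the 10 genes and the last chow mouse killed.

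The fasting difference was larger at 24 h than at 16 h for Per1 (by 0.75 on the log2 scale) and Cry1 (by 0.53), by the contrast tested in edgeR.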

How the results depend on the processing

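Of 80 gene and comparison values, 24 had an unadjusted p under 0.05, and of 2440 values under alternatives 74, from 40 of the 80, had the opposite sign, none of them called in either. The groups share no replicate numbers to pair mice by, and with round of cages as a covariate at 16 h 0 clock genes were called. After the 24 h fast, 3 clock genes were called. The count was 5 without the sparse columns, 5 with clock time as a covariate and 7 when columns that were not sparse were averaged with equal weight in limma, an alternative chosen after seeing the data. Leaving out 1 mouse gave 3 to 6, with 5 without mouse 1425 and 6 without mouse 1445, while the count over all genes ran from 2685 to 3725. For the contrast of fasting differences, with 2 called, limma with equal weight of all columns gave 1 and lost Cry1, and leaving out 1 mouse gave 2 to 4, the 4 being without mouse 1445. For the 16 h slope DESeq2 called 1. With equal weight of all columns, sparse ones included, signs turned for 4 of the 24 values with an unadjusted p under 0.05: Cry2 in 16 h fasted against chow (-0.31), Per3 (-0.22) and Cry1 (-0.0033) in 16 h fasted against HFD, and Per3 in the contrast (0.25). Over all genes the same setting called 837 at 24 h beside 3307, 157 for the contrast beside 523 and 0 for 16 h fasted against HFD beside 65. That last count was 37 with no filter on low counts, 354 by DESeq2, 133 with equal weight of columns that were not sparse, 140 with clock time as a covariate and 0 with sums per cage. Without 1 mouse it ran from 0 (fasted mouse 11) to 108 (chow mouse 6), and the contrast from 343 (without 16 h fasted mouse 8) to 633. The cause of these shifts was not tested.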
